A study of Caenorhabditis elegans with 4 samples.

Results

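The regions described here are the GEI-11 binding regions on the right arm of chromosome II of Caenorhabditis elegans. They were taken by position, inside an interval chosen with earlier results of these data known. Members are the regions of the authors' combined list on chromosome II whose centre lies above position 10200000 in the WormBase WS220 build. The rule gave 383 of the 5999 combined regions, 6.38% of the list. In the same interval the replicate 1 list held 266 of its 3021 regions and the replicate 2 list 291 of its 3722. The left arm and centre of chromosome II held 602 combined regions, which serve as the nearest comparison. The study mapped GEI-11 by chromatin immunoprecipitation and sequencing (ChIP-seq), in which protein crosslinked to DNA is pulled down with an antibody and the DNA that comes with it is sequenced. The animals were hermaphrodites of the strain OP179 at the fed L1 stage (fed larvae of the first stage), grown at 20 °C on HB101 bacteria and fixed with 2% formaldehyde. All 4 samples, 2 ChIP and 2 input, shared the genotype unc-119(ed3) III with the bombarded transgene wgIs179, which holds unc-119(+) and gei-11 fused to TY1, EGFP and 3xFLAG. The pull-down used an antibody against GFP, so the map is that of the tagged transgene product in whole larvae, and the cells that contributed cannot be told apart.

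GEI-11, also named SNPC-4, is the Myb-domain subunit of the small nuclear RNA activating protein complex (SNAPc). This complex binds a promoter element upstream of small nuclear RNA genes and starts their transcription by RNA polymerase II or III. In this species SNPC-4 is also known for its presence at the piRNA gene clusters of chromosome IV, which lie outside the interval described here. The gene table at hand, of the WBcel235 assembly, lists 16 of 129 genes of the small nuclear RNA class on chromosome II. Its positions belong to another build than the region lists, so what is annotated at each region was not analysed here, and no sequence of the WS220 build was used. Each region is therefore named by its WS220 start and end, counted from 1.

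Each region carries 1 measurement, the q value that the PeakSeq peak caller gave it in that list, shown here as −log10 q. A higher −log10 q is called stronger below. Sequencing depth is unknown and q values change with depth. They therefore order the regions inside a list, and levels of occupancy cannot be compared between lists with them. No regions called in the inputs (0 lists) were at hand as a background for the ChIP regions. Whether separate cultures gave the replicates is not stated in the labels, so their spread may be technical. Regions of 1 list come from the same library and lie in groups along the chromosome, so they are not independent replicates. Differences between parts of the genome are therefore given with their 95% exact binomial intervals, which cover counting error only, and were not tested.

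Strong GEI-11 regions made up a larger share of the arm than of the rest of chromosome II. The median −log10 q of the 383 combined regions was 6.17, and the middle 50% of them ran from 3.29 to 13.7. In the left arm and centre of chromosome II the median was 4.15, and over all 5616 regions outside the arm it was 4.12. Of the arm regions, 123 had q at or below 1e-10 (32.1%, interval 27.5 to 37.0), where 19.7% of the whole combined list had. On the rest of chromosome II, 102 of 602 regions did so (16.9%, interval 14.03 to 20.2). The replicate lists showed the same order. In replicate 1, 44 of 266 arm regions (16.5%, interval 12.3 to 21.6) reached this q value, against 33 of 326 on the rest of the chromosome (10.1%, interval 7.07 to 13.9) and 11.5% of the whole replicate 1 list. In replicate 2 the numbers were 62 of 291 (21.3%, interval 16.7 to 26.5) and 41 of 374 (10.96%, interval 7.98 to 14.6), with 14.2% over the whole replicate 2 list. The intervals of arm and rest do not overlap in the combined list or in replicate 2, and they overlap in replicate 1. They count regions as if independent, which they are not, so this is not a test of the difference. Of the 100 strongest combined regions of the genome 15 lay in the arm, and of the 100 strongest of replicates 1 and 2, 16 and 15. The arm held 111 of the first 1000 combined regions (11.1%, interval 9.22 to 13.2), where it held 6.38% of the whole list. It held 116 of the first 1000 of replicate 1 (11.6%, interval 9.68 to 13.7). Its share of that whole list was 8.81% (interval 7.82 to 9.87). In replicate 2 it held 120 of the first 1000 (12%, interval 10.05 to 14.2) and 7.82% of the whole list (interval 6.98 to 8.73). In each list the first 1000 are part of the whole list, so these intervals cannot be set against each other.

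**Figure D1:**
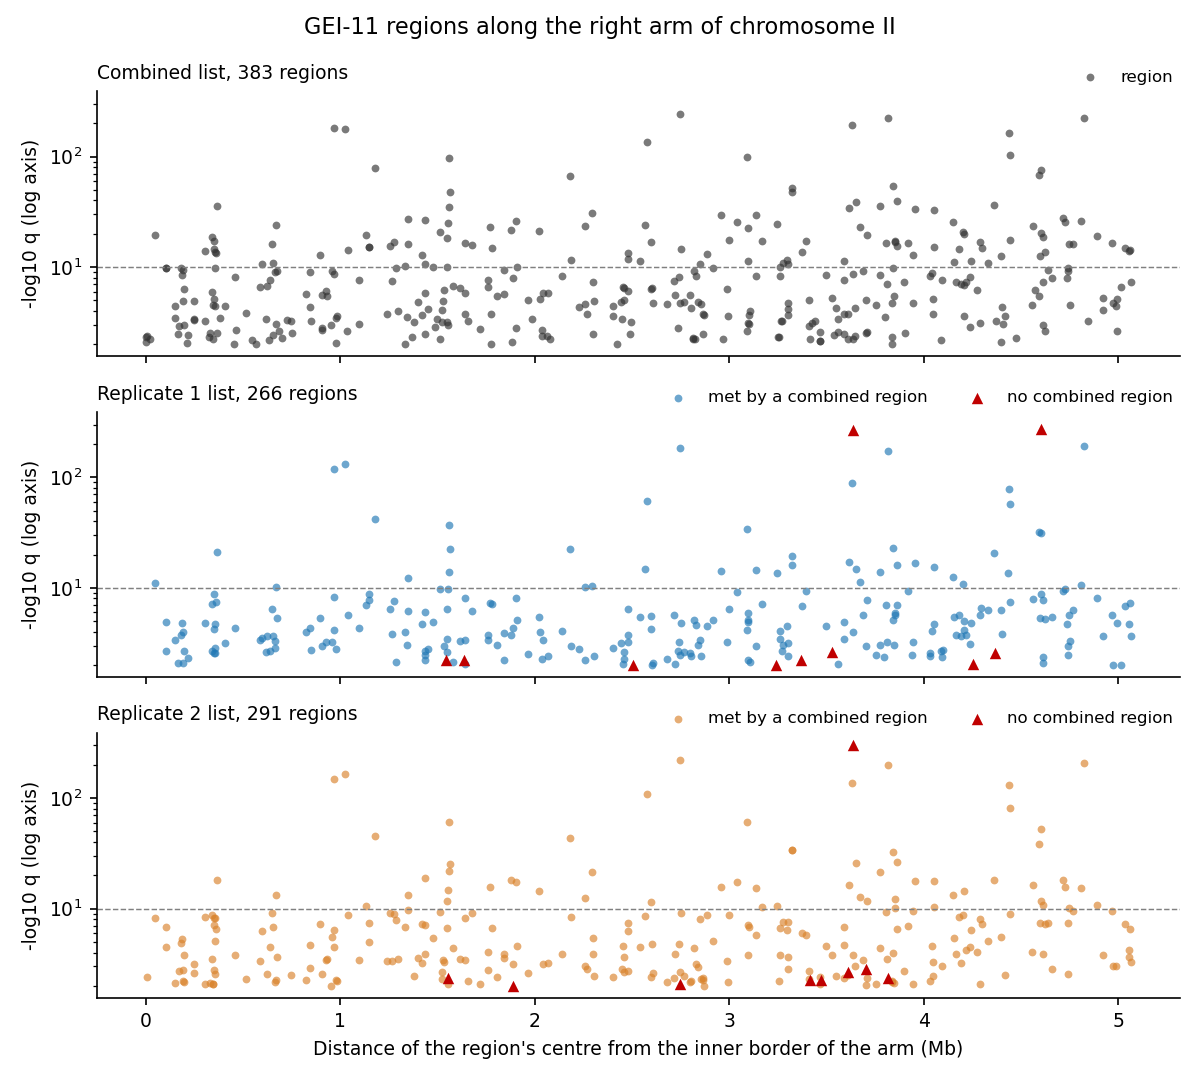
Strength of each GEI-11 region against its distance from the inner border of the arm, in the combined list and the 2 replicate lists. Each point is 1 region, the dashed line marks −log10 q of 10, and red triangles mark replicate regions that no combined region overlaps. Strong regions occur along the whole arm, and the triangles lie either near −log10 q of 2 or among the highest values.

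The 25 combined regions of lowest q value were followed through the 3 lists. The strongest, 12944409 to 12945444, was 1036 bp wide and ranked 6 in the genome. Its −log10 q was 243 among combined regions, 185 for replicate 1 and 222 for replicate 2. The region 14017785 to 14018887 followed with 225, 175 and 200, and 15025223 to 15026248 with 225, 193 and 206. These 3 stood close together in each list and apart from the next. Place 4, 13829004 to 13830572, had 192 in the combined list but 88.4 in replicate 1 and 138 in replicate 2, lower in each replicate than the regions placed 5 and 6. Place 5, 11166325 to 11167567, had 182, 118 and 148, and place 6, 11223591 to 11224477, had 179, 132 and 164. Of the 64 combined regions in the genome with −log10 q of 100 or more, 9 lay in the arm, the last of them 14641390 to 14641881 with 103 in the combined list, with 57.8 in replicate 1 and 81.5 in replicate 2.

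The remaining 16 of the 25 had −log10 q below 100 in the combined list, with no wide step between them and the 9 above. The region 13289828 to 13291979 had 99.2 in the combined list, with 33.8 in replicate 1 and 60.2 in replicate 2. The region 11376607 to 11377100 had 78.5, 41.6 and 45.4. The 25th, 11759189 to 11759669, had 35.2, 13.8 and 21.9, and the next region of the arm had 34.2 in the combined list. Across the 25, replicate 1 values of −log10 q spanned 13.8 to 193 and replicate 2 values 18.3 to 222. Replicate 2 had the higher value for 23 of the 25. The exceptions were 14561565 to 14561934, with 20.8 in replicate 1 and 18.3 in replicate 2, and 10563281 to 10563732, with 21.0 and 18.3. Of the 25, 21 met a region that was also among the first 25 arm regions of replicate 1, and 23 met one of the first 25 of replicate 2. Widths ran from 370 to 2152 bp with a median of 567 bp, against 308 bp over all 383 regions.

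Several of these strong regions were neighbours. Of the 25, 9 lay within 10 kb of another and formed 4 neighbourhoods. The largest, 11756191 to 11762445, held 3 of them in 6255 bp with no other combined region between. Its members had −log10 q of 96.4, 35.2 and 48.2 from left to right in the combined list. A pair at 13521008 to 13521419 and 13521792 to 13522180 was separated by 372 bp. The left member of this pair had −log10 q of 47.9 in the combined list, with 16.1 in replicate 1 and 34.2 in replicate 2, and the right member had 51.6, 19.2 and 34.1. The regions 14635143 to 14636489 and 14641390 to 14641881 lay within 6739 bp, and 14794823 to 14795325 and 14801020 to 14801586 within 6764 bp.

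**Figure D2:**
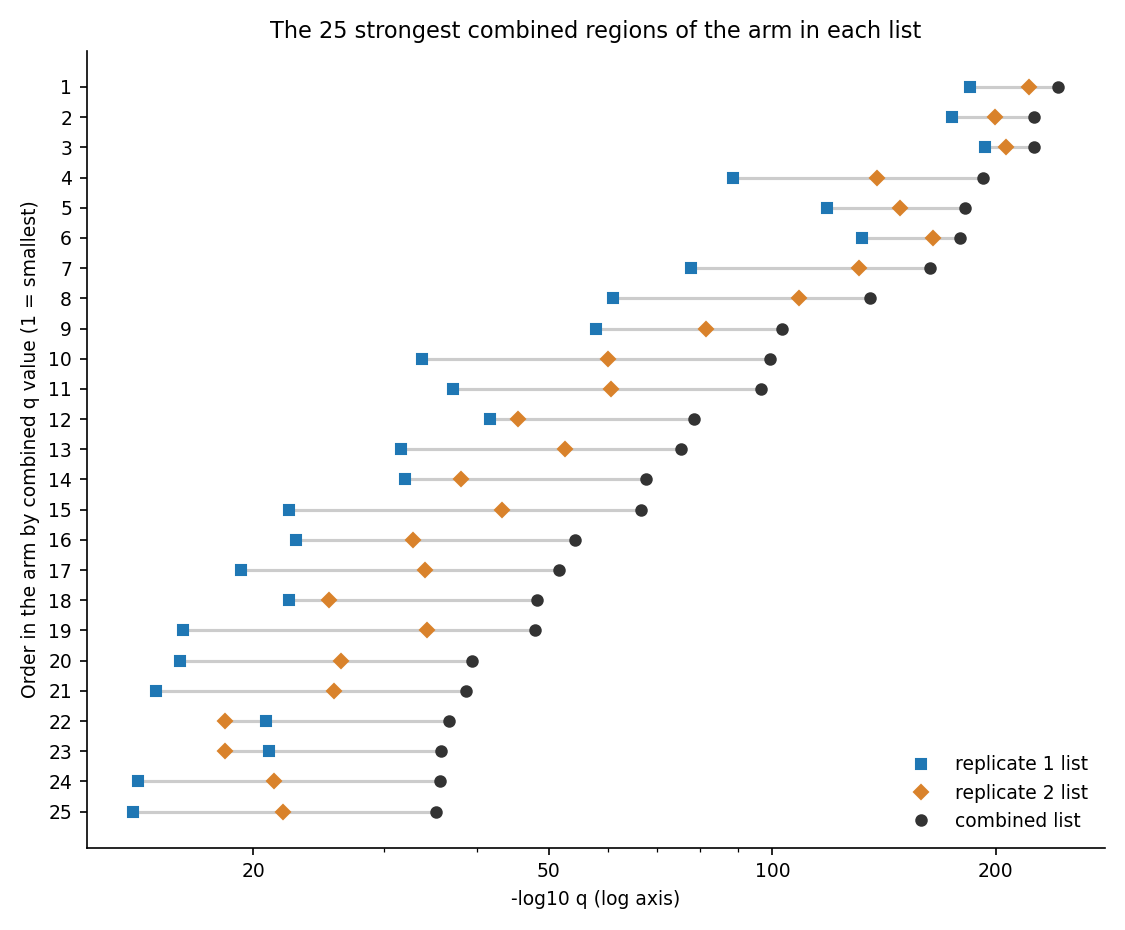
The −log10 q of the 25 strongest combined regions of the arm in the replicate 1, replicate 2 and combined lists, in the order of the combined q value. Grey lines join the 3 values of a region. Replicate 2 lies right of replicate 1 for all but 2 regions, and where several replicate regions met a combined region the strongest is drawn.

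Some of the strongest signal of the arm was held by the replicate lists alone. No combined region overlapped 10 of the 266 replicate 1 regions (3.76%, where the whole list had 5.46%) and 9 of the 291 replicate 2 regions (3.09%, where the whole list had 4.38%). This total of 19 depended on the rule, and was 50 when centres had to lie within 200 bp. It was 12 when all 3 lists were first cut to regions of at least 50 bp. It was 4 when they were cut to q of 1e-3 or less. These cuts also removed combined regions that replicate regions had met, so the 12 and the 4 are not all among the 19. The region 13834206 to 13835242 had −log10 q of 268 in replicate 1, rank 3 of that list. Its counterpart, 13834207 to 13835235, had 303 in replicate 2, rank 1 of that list. The 2 calls differed by 1 bp at the start and 7 bp at the end, and the nearest combined region, 13833631 to 13833635, lay 570 bp away with −log10 q of 2.25. The region 14804070 to 14804906 had −log10 q of 273 in replicate 1, rank 2 of that list, and no region of replicate 2 or of the combined list overlapped it. The nearest replicate 2 region, 14802482 to 14802812, lay 1257 bp away with −log10 q of 11.7, and the nearest combined region, 14802482 to 14802826, lay 1243 bp away with 20.2. Each lay near one of the 25 regions above, the first near 13829004 to 13830572 and the second near 14801020 to 14801586. The other 16 were weak. Their −log10 q spanned 2.01 to 2.63 (replicate 1) and 2.0 to 2.86 (replicate 2), their widths from 3 to 162 bp, and none met a region of the other replicate. Of these 16, 9 were narrower than 50 bp.

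The majority of the arm's combined regions were found in each replicate separately. A combined region counts as met when it shares at least 1 bp with a replicate region. Both replicates had a region at 215 of the 383 (56.1%, interval 51.0 to 61.2), where 38.8% of the whole combined list did so. On the rest of chromosome II, 234 of 602 (38.9%, interval 35.0 to 42.9) were met in both. A further 33 arm regions (8.62%) met replicate 1 only and 63 (16.4%) met replicate 2 only. The remaining 72 (18.8%, interval 15.01 to 23.1) met neither, where the whole combined list had 33.2%. With the replicate 1 list alone, 135 of the 383 (35.2%) were not met, and with the replicate 2 list alone 105 (27.4%). On the rest of the chromosome 177 of 602 (29.4%, interval 25.8 to 33.2) met neither. For regions met in both replicates the medians were 11.6 for −log10 q and 375 bp for width. For those met in neither they were 2.49 and 114.5 bp. The strongest region met in neither, 14773366 to 14773370, was 5 bp wide with −log10 q of 6.22 and lay 10529 bp from the nearest replicate 2 region and 10607 bp from the nearest replicate 1 region. The next, 14790391 to 14790435, was 45 bp wide with 5.46, and after it came 13787542 to 13787652, 111 bp wide with 3.76. The innermost member, 10200762 to 10201039, had −log10 q of 2.12 and was met in neither, as was the last region outside the border, 10197124 to 10197330, with 2.55.

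Nearly the same number of arm regions was matched in each direction between the replicates, and the shares differ with the lengths of the lists. Of the 266 replicate 1 regions of the arm, 218 (82.0%, interval 76.8 to 86.4) met a replicate 2 region, where 77.6% of the whole replicate 1 list did so. On the rest of chromosome II, 238 of 326 (73.0%, interval 67.8 to 77.8) met one. Of the 291 replicate 2 regions, 215 (73.9%, interval 68.4 to 78.8) met a replicate 1 region, where the whole list had 63.0%. Among 18 parts of the genome, with each chromosome divided into 3, the arm ranked 3 for the first of these shares, after the right parts of chromosomes I (85.0%) and X (82.6%), and 1 for the second. On the rest of the chromosome, 238 of 374 (63.6%, interval 58.5 to 68.5) did so. The median −log10 q was 5.08 for matched and 2.71 for unmatched regions of replicate 1, and 6.80 and 2.41 for those of replicate 2. Apart from 14804070 to 14804906, the strongest replicate 1 region without a partner was 15193862 to 15194154 with 4.80. In replicate 2 it was 14838843 to 14839160 with 7.40. Over the 218 matched pairs −log10 q rose together, with a Spearman rho of 0.793 and a Pearson r of 0.961, values that describe 1 pair of libraries. In 154 pairs (70.6%) the replicate 2 value was above that of replicate 1, close to the 71.6% of 2126 pairs outside the arm, and the median of replicate 2 minus replicate 1 over all pairs of the arm was 1.47, against 1.04 outside it. In the 212 pairs that matched 1 to 1, the centres lay a median of 28.5 bp apart and at most 218 bp, and 159 pairs (75%) lay within 50 bp. Only overlapping regions were paired, so these offsets are limited by the widths of the regions. The shared bases made up a median of 77.1% of the combined span of a pair, and neither replicate had mostly wider regions, since replicate 2 was wider in 104 of the 212.

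**Figure D3:**
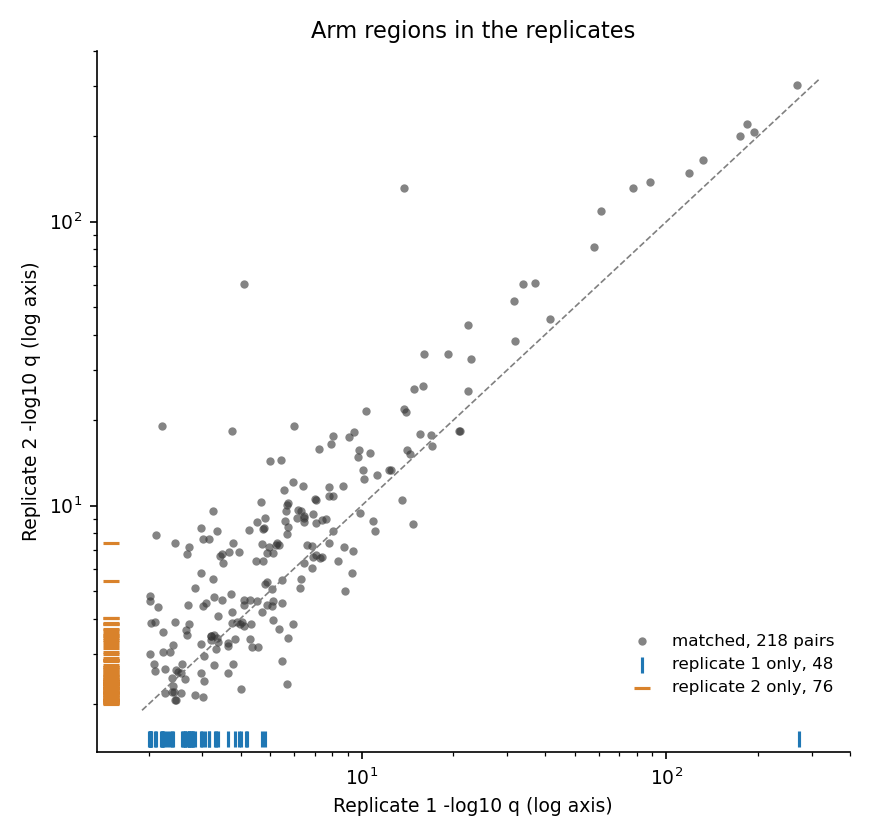
Replicate 2 against replicate 1 −log10 q for the 218 matched pairs of arm regions, on log axes with the line of equality. Ticks along the axes are the 48 replicate 1 and 76 replicate 2 regions with no partner. Unmatched regions lie low except for the replicate 1 region with −log10 q of 273, and the few points far above the line include small replicate 1 regions that share a replicate 2 region with a stronger one.

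Support followed strength in the arm and outside it. The combined list has no sample of its own, so its strengths and the support by the replicates cannot be taken as independent measures. All 123 combined regions of the arm with −log10 q of 10 or more were met in both replicates, as were 1054 of 1058 outside it. Between 5 and 10, 78 of 94 were met in both (83.0%, interval 73.8 to 89.9), and between 3 and 5, 14 of 90 (15.6%, interval 8.77 to 24.7). Below 3, 0 of 76 were met in both and 52 (68.4%, interval 56.7 to 78.6) were met in neither, and outside the arm the counts were 0 and 1508 of 1885. The weakest region met in both had −log10 q of 4.23, and the strongest that was not met in both had 9.40. The bands held different shares of each part. Regions below 3 made up 19.8% of the arm and 31.1% of the rest of chromosome II, and regions of 20 or more made up 13.8% and 6.31%. Within the band from 5 to 10, the arm's 83.0% stood beside 79.1% (interval 71.4 to 85.6) on the rest of the chromosome and 70.5% (interval 67.9 to 72.9) over all regions outside the arm. Weighting the band shares of the rest of chromosome II by the arm's own mix of strengths gave 54.5% met in both, and doing the same with all regions outside the arm gave 51.7%, beside the arm's 56.1%. The part of the mix of strengths in the arm's higher support was not tested.

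**Figure D4:**
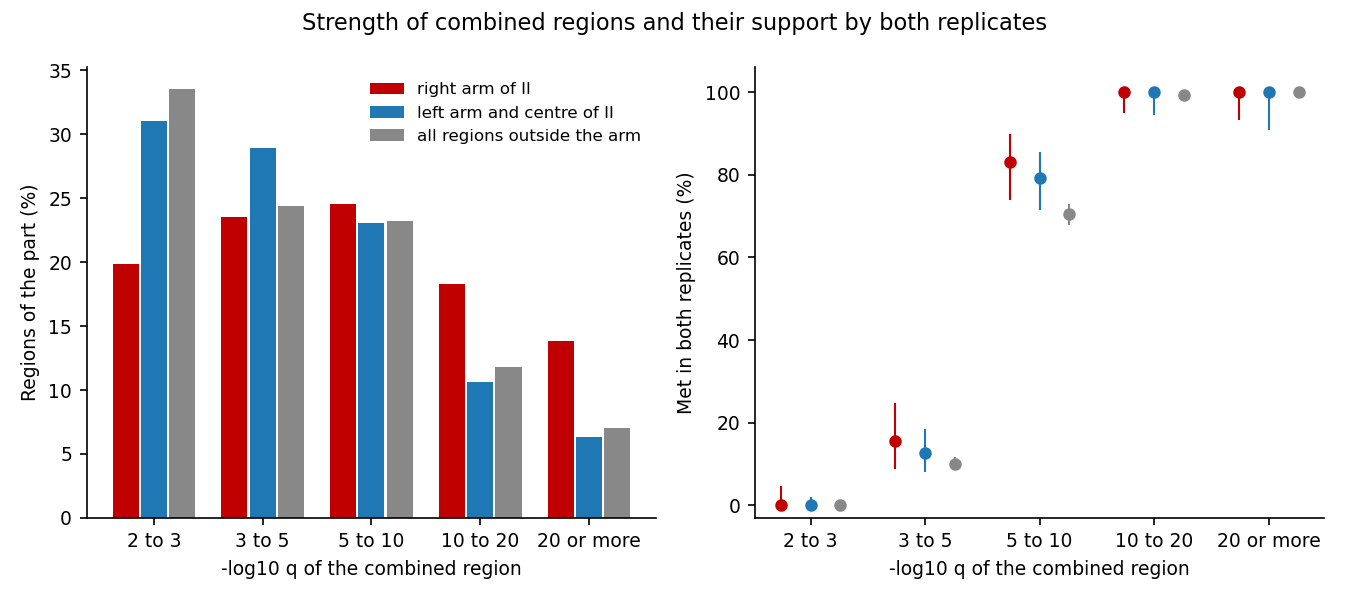
Left, share of each part's combined regions in 5 bands of −log10 q, as bars from 0. Right, share of each band met in both replicates, with 95% exact intervals; colours mark the right arm, the left arm and centre of chromosome II, and all regions outside the arm. The arm has fewer regions below 3 and more above 10. Within a band the intervals of the parts overlap except from 5 to 10, where the arm lies above all regions outside it. The intervals cover counting error only and are not a test.

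Width and strength went together, and in every width class examined the median −log10 q was higher in the arm than on the rest of chromosome II. The Spearman rho between width and −log10 q was 0.805 over the 383 arm regions and 0.679 over the 5616 others, as a description. The median width was 308 bp in the arm and 310 bp on the rest of chromosome II, so the arm's regions were not wider as a group. Among regions at least 200 and under 400 bp wide, 182 in the arm had a median −log10 q of 6.59 and 282 on the rest of the chromosome had 4.40. Of these, 119 (65.4%, interval 58.0 to 72.3) and 121 (42.9%, interval 37.1 to 48.9) were met in both replicates. Among regions at least 400 and under 800 bp wide, 75 in the arm had a median of 14.8 and 142 on the rest had 6.24, and 69 (92.0%, interval 83.4 to 97.0) and 87 (61.3%, interval 52.7 to 69.3) were met in both. Regions narrower than 50 bp numbered 25 in the arm, and 0 of them were met in both replicates while 21 were met in neither. Outside the arm, 0 of 413 such regions were met in both and 353 (85.5%) in neither. The widest member, 10550281 to 10552627, was 2347 bp wide with −log10 q of 17.2. Replicate 1 covered part of it with 1 region of 860 bp at −log10 q of 8.78, and replicate 2 with 1 of 861 bp at 7.16. The next, 13289828 to 13291979, was split in replicate 1 into regions of 325 and 1445 bp with −log10 q of 4.11 and 33.8, and was a single region of 2097 bp with 60.2 in replicate 2. The region 11634906 to 11636704, 1799 bp wide with −log10 q of 26.7, had 6.001 at most in replicate 1 and 19.1 in replicate 2. Such splitting was rare, with 8 arm regions meeting more than 1 region of replicate 1 and 4 meeting more than 1 of replicate 2. In the other direction 0 replicate regions met more than 1 combined region.

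The arm was set beside the other parts of the genome, 18 in all, with each chromosome divided into 3 parts of about equal length. The arm had the highest share met in both replicates and the lowest share met in neither. The right part of chromosome X came next, with 45.4% met in both and 25.1% in neither, then the right part of chromosome III with 43.7% met in both. The median over the other 17 parts was 37.5% for both and 32.6% for neither. In the median −log10 q the arm also stood first in each list. It had 6.17 in the combined list, where the other parts ran from 3.06 to 4.95, and 4.30 in replicate 1, where they ran from 2.98 to 4.15. In replicate 2 it had 4.53, where they ran from 3.19 to 4.39. The number of combined regions did not set it apart. It had 75.6 combined regions per Mb, rank 4 of 18, with the centre of chromosome III highest at 84.3. In the replicate lists it had 52.5 and 57.5 regions per Mb and ranked first in each. On chromosome II itself the arm is 33.2% of the length used. It held 38.9% of the chromosome's combined regions (interval 35.8 to 42.0), 44.9% of those of replicate 1 (interval 40.9 to 49.0) and 43.8% of those of replicate 2 (interval 39.9 to 47.6). The left arm, up to 5.1 Mb, held 239 combined, 119 replicate 1 and 147 replicate 2 regions.

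**Figure D5:**
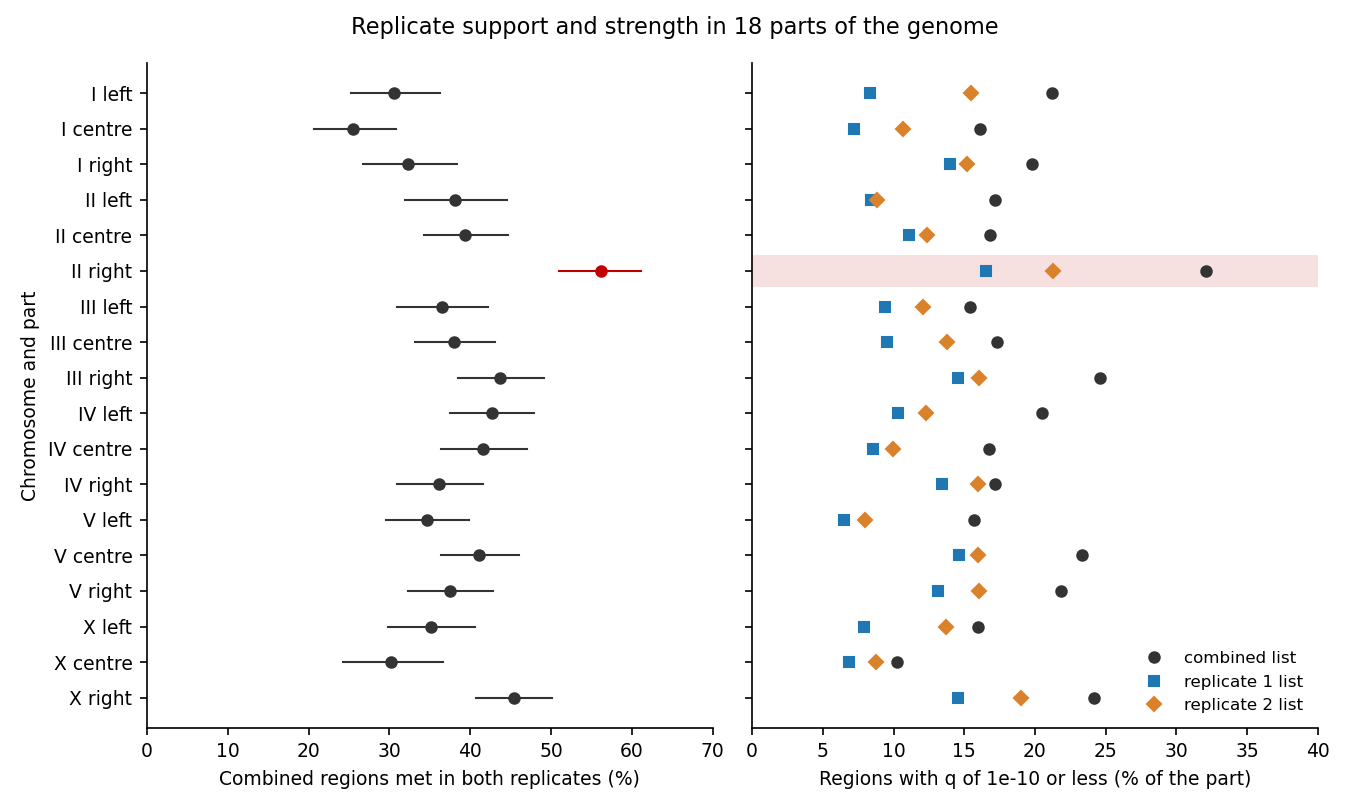
Left, share of combined regions met in both replicates in each of 18 chromosome parts, with 95% exact intervals and the right arm of chromosome II in red. Right, share of regions with q of 1e-10 or less in each list, with the arm shaded. The arm stands highest in each panel and each list, with 56.1% met in both and 32.1%, 16.5% and 21.3% strong regions in the combined, replicate 1 and replicate 2 lists.

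Strength was uneven along the arm. From its inner border to 11 Mb the arm had 65 combined regions, 12 of them (18.5%, interval 9.92 to 30.03) with q of 1e-10 or less, a median −log10 q of 4.40, and 29 (44.6%) met in both replicates. From 14 to 15 Mb it had 79, with 37 (46.8%, interval 35.5 to 58.4) at that q value, a median of 9.40 and 52 (65.8%) met in both. The replicate medians pointed the same way, with 3.63 and 5.58 in replicate 1 and 3.59 and 7.28 in replicate 2 for these blocks. The block from 11 to 12 Mb had 27 strong regions of 78 and the block from 12 to 13 Mb 15 of 60. The block from 13 to 14 Mb had the most regions, 85, with 25 strong ones, and the last 0.263 Mb had 7 of 16. Of all these blocks, the first had the lowest share of strong regions and that from 14 to 15 Mb the highest. The interval of each other block overlapped both of theirs. These intervals cover counting error only, and differences between blocks were not tested. Of the 25 strongest regions 1 lay below 11 Mb, 6 from 11 to 12, 3 from 12 to 13, 6 from 13 to 14, 8 from 14 to 15 and 1 above 15 Mb. The outermost region, 15263083 to 15263342, had −log10 q of 7.37 in the combined list, with 3.63 in replicate 1 and 3.28 in replicate 2.

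In windows of 100 kb the arm held a median of 6 combined regions, the same as over all 1005 windows of the genome. On the rest of chromosome II the median was 5. Empty windows numbered 0 of 51 in the arm, 2 of 102 on the rest of chromosome II and 16 of 1005 in the genome. The fullest window of the arm, 10500001 to 10600000, held 18 combined, 11 replicate 1 and 15 replicate 2 regions. Of its combined regions, 11 were met in both replicates and 7 had q of 1e-10 or less. The window 11700001 to 11800000 followed with 15, 11 and 14 regions, and 14000001 to 14100000 with 14, 10 and 14. The fullest window had a median −log10 q of 5.57, while the window at 14000001 had 12.6 and that at 11300001, with only 4 regions, 17.3. Other windows with 4 regions differed widely, with 3.56 at 10600001, 2.90 at 10900001 and 22.7 at 15000001.

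Neighbouring regions of the arm were separated by a median of 6589 bp in the combined list, 9011 bp in replicate 1 and 8788 bp in replicate 2, and by 8136 bp on the rest of chromosome II in the combined list. The shortest gap in the arm was 202 bp. The longest was 101653 bp, between 12502067 and 12603721. Of 382 gaps, 58 (15.2%) were 1 kb or less. Joining regions across such gaps gave 283 single regions, 28 pairs and 14 groups of 3 or more. On the rest of chromosome II, 79 of 601 gaps (13.1%) were 1 kb or less. Joining there gave 466 single regions, 43 pairs and 14 groups of 3 or more, the largest of 5. The largest groups of the arm had 4 regions, at 13500602 to 13502784 and at 13787542 to 13790056. Their strongest members had −log10 q of 10.6 and 11.4. In 4 of the arm's groups of 3, at 10387960, 10547612, 10555247 and 12677816, all members were met in both replicates. In the group starting at 10555247 they ran from 9.77 to 13.8 in the combined list. Among regions with q of 1e-10 or less, the closest neighbours were 11634087 to 11634666 and 11634906 to 11636704, 239 bp apart with 10.6 and 26.7. Next were 13297487 to 13298242 and 13298571 to 13298993, 328 bp apart with 22.3 and 11.3. The pair at 10548745 to 10549950 and 10550281 to 10552627, 330 bp apart, had 14.5 and 17.2. In each of these 3 pairs both members were met in both replicates, and 0 replicate regions spanned both members.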

How the data were processed

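The labels give 4 samples, ChIP replicates 1 and 2 and input replicates 1 and 2. The authors deposited 3 region lists used here, 1 per ChIP replicate and 1 named combined. Per the file headers, regions were called with PeakSeq and their positions were lifted to WormBase WS220 from a build that is not named. Each deposited region has a q-value of 0.01 or less. The aligner, versions, filters, use of the inputs and the way the combined list was made are not given in any source used here. Comments on lifted positions named 0 regions of the arm.

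From these lists, region centres, widths and −log10 q were computed, and regions were matched by an overlap of at least 1 bp, with Python 3.11.15, numpy 2.4.6 and scipy 1.17.1. Matching was tested on simulated data. Shares carry 95% exact Clopper-Pearson intervals. Other chromosomes were cut into 3 equal parts up to their furthest region, and chromosome II at 5.1 Mb and at position 10200000. Named regions were the 25 smallest q values, replicate regions of rank 50 or better with no combined region, the first 3 met in neither replicate, the 3 widest, the 3 densest windows, the 3 closest strong pairs and those beside the border. Other regions were named after their values were seen. The interval and the lists were chosen with earlier results of these data known.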

Additional observations from a re-analysis of the deposited data

How the results depend on the processing

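Over 48 alternatives to 8 results, 33 left a share inside its 95% interval, a count within 1.5 times or a rho within 0.05, and 15 moved it further; the cause was not tested. The arm's share met in both replicates stayed inside its interval throughout, from 52.2% to 58.9%. Regions of at least 50 bp gave 14.8% met in neither replicate and 12 replicate regions without a combined region. Regions with q of 1e-3 or less gave 26.7% met in neither, under a cut that also took weaker regions out of the replicate lists. Against the full replicate lists, 18 of 90 arm regions with −log10 q from 3 to 5 met neither, as did 2 of 94 from 5 to 10. The same cut gave 87.4% of replicate 1 regions met in replicate 2 and 79.7% of replicate 2 regions met in replicate 1. It left 4 replicate regions without a combined region, and put 42.5% of chromosome II regions in the arm. Centres within 200 bp gave 50 replicate regions without a combined region. The arm held 54.7% of chromosome II regions with q of 1e-10 or less and 47.9% of those met in both replicates. With 1 replicate list alone, combined regions not met ran from 27.4% to 35.2%, since fewer regions are then available to meet them, the arm's share of chromosome II regions from 43.8% to 44.9%, and the fullest window from 11 to 15 regions. Under each matching rule and filter the arm had a higher share met in both than the rest of chromosome II, from 52.2% against 37.0% with centres within 200 bp to 58.9% against 42.0% with regions of at least 50 bp. No paired analysis was possible because each ChIP list is a single measurement and 0 lists of the inputs with the same replicate numbers were at hand. Depth is unknown, so its limit on weak regions was not measured.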
